A study of Arabidopsis thaliana with 14 samples.

Results

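The genes described here are 46 nuclear genes of Arabidopsis thaliana that encode subunits of the photosynthetic machinery of the chloroplast. They were taken by gene identifier from a table of 33278 genes: 6 LHCA and 14 LHCB genes of the light-harvesting antennae, 12 PSA genes of photosystem I, 10 PSB genes of photosystem II, and the 4 RBCS genes of the small subunit of Rubisco. All 46 were listed in both expression tables, one for early senescent (ES) leaves and one for young leaves (YL), and all 46 passed the filter on low values in both. RNA was sequenced from ES leaves of the *hda9* mutant, the *pwr* mutant and the wild type (WT, ecotype Columbia-0), with 2 libraries each, and from YL leaves of *hda9*, with 1 library, and WT, with 2 libraries. YL leaves were 2 weeks old by the labels, while the study's methods give a younger age for the RNA-seq seedlings. Both mutants are T-DNA insertion lines, *hda9* in the histone deacetylase gene HDA9 and *pwr* in POWERDRESS (PWR), whose protein acts together with HDA9, and each is represented by 1 line. All plants grew on soil in continuous light. The study asked how loss of either gene changes expression in senescing leaves.

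Chlorophyll-binding LHCA and LHCB proteins capture light and pass its energy to the reaction centres of photosystem I and photosystem II. The PSA and PSB proteins encoded in the nucleus surround core subunits that are made in the chloroplast, and Rubisco, which fixes carbon dioxide, likewise joins small subunits from nuclear RBCS genes with large subunits from a chloroplast gene. Leaves take this machinery apart as they senesce, which frees its nitrogen for growing organs, and transcripts of these genes are known to decline at that time.

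The values are FPKM, numbers of sequenced fragments relative to transcript length and to the size of the library, and the tables hold no read counts, so the depth behind a value is not known from them and no counting interval is given. The libraries fell into 2 sets by the form of their low values. In *hda9* ES replicate 2, both *pwr* ES libraries, WT ES replicate 2 and WT YL replicate 2, genes under 1 FPKM often stood in one and the same ratio between libraries, as values counted in whole reads do. In *hda9* ES replicate 1, WT ES replicate 1, *hda9* YL and WT YL replicate 1 they did not. The commonest ratio took 14.05% to 21.2% of low genes in pairs of the first set (below, libraries with steps) and at most 3.05% in all other pairs. No library of *pwr* falls in the set without steps, so set and genotype can be separated only in part, and results are also given within a set. Transcripts of HDA9 stood at 1.12 and 3.21 FPKM in *hda9* ES, 11.3 and 9.71 FPKM in *pwr* ES and 5.94 and 11.7 FPKM in WT ES, and those of PWR at 28.5 and 51.5 FPKM in *hda9* ES, 7.01 and 6.02 FPKM in *pwr* ES and 10.2 and 16.97 FPKM in WT ES. HDA9 was lower in *hda9* (log2 difference -1.65, SE 0.46), while the *pwr* libraries lay below WT for PWR without passing the test (-0.92, SE 0.39). In YL leaves HDA9 had 0.918 FPKM in *hda9* YL and 3.34 and 4.73 FPKM in WT YL. Summed FPKM of 7 senescence markers was 1491 to 2350 in *hda9* ES, 392 to 574 in *pwr* ES and 589 to 1502 in WT ES, against 114 in *hda9* YL and 60.1 to 107 in WT YL. SAG12, a cysteine protease of late senescence, was at 0.636 and 10.9 FPKM in *hda9* ES, 0.0770 and 0.644 FPKM in *pwr* ES and 0 and 5.0004 FPKM in WT ES, and was listed at 0 in the YL libraries.

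The level of the 46 genes moved over a wide range. The median gene had 1119 and 371 FPKM in *hda9* ES, 968 and 922 FPKM in *pwr* ES, and 1956 and 978 FPKM in WT ES. The YL medians were 3422 FPKM in *hda9* and 3006 and 1690 FPKM in WT. Replicates differed as much as genotypes did: replicate 1 exceeded replicate 2 by a median log2 difference of 1.43 in *hda9* ES, with all 46 genes above, and of 1.11 in WT ES, with 45 of 46 above. The 2 *pwr* ES libraries, both with steps, differed by 0.06. In WT YL the same difference was 0.84, with 44 of 46 genes above. In bulk leaf RNA, fewer cells of a type and less RNA per cell cannot be told apart.

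**Figure D1:**
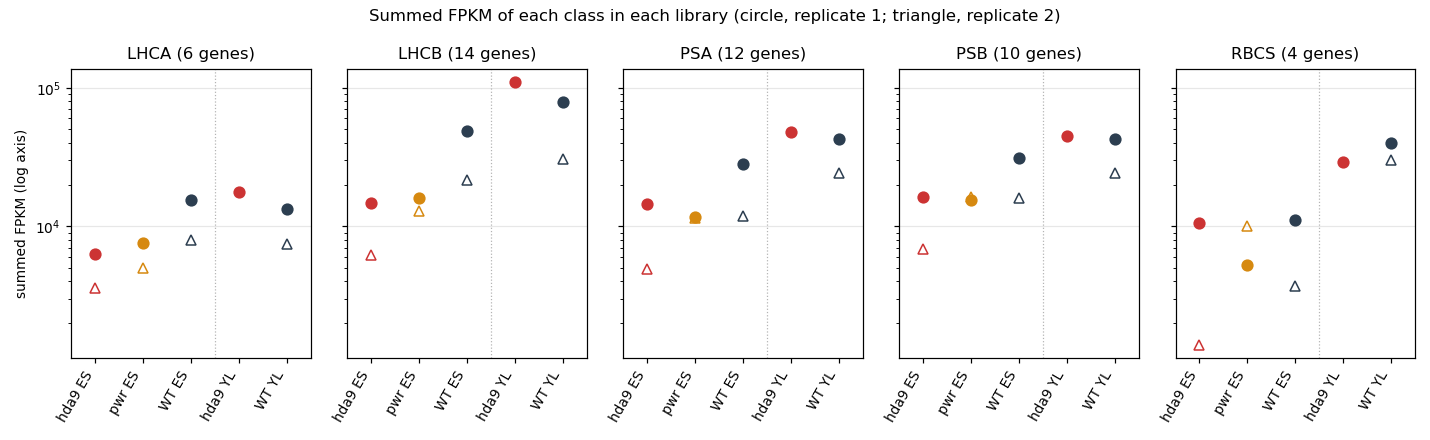
Summed FPKM (log axis) of each gene class in each library; columns are *hda9* ES, *pwr* ES, WT ES, *hda9* YL and WT YL, circles are replicate 1 and triangles replicate 2. LHCB sums reached 14808 and 6246 FPKM in *hda9* ES, against 48720.2 and 21725 FPKM in WT ES, without overlap, while the RBCS sums of these groups interleave.

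Summed by class, the LHCB antenna genes of photosystem II showed the widest gap between *hda9* and WT. Their sum was 14808 and 6246 FPKM in *hda9* ES, 15881 and 12843 FPKM in *pwr* ES, and 48720.2 and 21725 FPKM in WT ES, so that every mutant library lay below both WT libraries. The LHCA genes summed to 6329 and 3584 FPKM in *hda9* ES, 7523 and 5020.0 FPKM in *pwr* ES, and 15585 and 7990.1 FPKM in WT ES, again with no mutant library above a WT library. The photosystem I subunits gave 14373 and 4905 FPKM in *hda9* ES, 11711 and 11432 FPKM in *pwr* ES, and 28191 and 11771 FPKM in WT ES. Here *hda9* and WT overlapped, since replicate 1 of *hda9* exceeded replicate 2 of WT. The photosystem II subunits gave 16220.5 and 6891 FPKM in *hda9* ES, 15571 and 16296 FPKM in *pwr* ES, and 30906 and 16103 FPKM in WT ES. RBCS gave 10482 and 1389 FPKM in *hda9* ES, 5241 and 9999 FPKM in *pwr* ES, and 11095 and 3682 FPKM in WT ES. The RBCS sums of the genotypes interleaved, and the lowest and the next to highest value both came from *hda9*.

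In ES leaves, 13 of the 46 genes fell in *hda9* relative to WT and none rose (limma, unadjusted p under 0.05, the threshold of the study). Over all 18140 genes tested, 2.71% were called lower and 2.23% higher. All 46 genes had a lower mean in *hda9*, with a median log2 difference of -1.18, against 0.01 over all genes tested. The 2 *hda9* libraries lay below the 2 WT libraries for 21 of the 46, as they did for 16.0% of all genes, and above them for none, against 15.0% of all genes. After Benjamini-Hochberg adjustment over all genes tested none of the 46 passed, against 0.00551% of all genes higher and 0.0221% lower. Each of the 13 had an adjusted p = 0.908 and had its 2 *hda9* values below its 2 WT values. The count of 13 depended on single libraries: it was 2 without WT replicate 1, where 2.39% of all genes were called lower, 15 without WT replicate 2 (2.29%), 31 without *hda9* replicate 1 (5.56%) and 3 without *hda9* replicate 2 (1.22%). It was 7 under each of the 3 rescalings of the libraries that were tried, where 2.8%, 2.75% and 1.63% of all genes were called lower. With no filter on low values it was 3, against 2.68% of all genes. The negative mean difference held for all 46 genes under each rescaling, but for 42 without WT replicate 1 and for 35 without *hda9* replicate 2. Replicate 2 of both genotypes also had the higher senescence marker sums, and all 7 markers had a higher mean in *hda9* (median 1.03, none past the test). In *pwr*, 6 of the 7 markers had a lower mean than in WT (median -0.42), and SEN4 was called lower. The study, in contrast to the *hda9* values here, reports later leaf senescence in *hda9* and *pwr* than in WT. From RNA-seq of YL and ES leaves it reports a weaker rise of senescence-associated genes in *hda9* than in WT. By quantitative RT-PCR it found lower SEN4, SAG12 and SAG113 in *hda9*, all of them among the 7 markers. Epidermis markers (5 genes, PDF1 listed at 0) summed to 231 to 319 FPKM in *hda9* ES. The sums were 218 to 253 FPKM in *pwr* ES and 416 to 435 FPKM in WT ES. CUT1 gave the largest part of each sum, at 248 and 149 FPKM in *hda9* ES, against 360 and 323 FPKM in WT ES. None of the 4 genes above 0 was called in *hda9*, where 3 had a lower mean than in WT and CER1 a higher mean. CUT1 was called lower in *pwr*. Guard cell markers (5 genes) summed to 34.7 to 60.8 FPKM in *hda9* ES. The sums were 37.2 to 60.1 FPKM in *pwr* ES and 31.2 to 31.4 FPKM in WT ES. KAT1 was called higher in *hda9*, at 32.0 and 19.5 FPKM, against 7.99 and 14.1 FPKM in WT ES. MYB60 and GC1 had a lower mean in *hda9* than in WT. The part of these markers in the result was not tested.

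The classes took unequal shares of these calls. LHCB genes gave 9 of the 13, out of 14 (median -1.78). LHCA genes gave 2 of 6 (median -1.24), PSA genes 1 of 12 (median -1.16) and PSB genes 1 of 10 (median -1.01). None of the 4 RBCS genes passed (median -0.74).

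LHCB1, LHCB2 and LHCB3 proteins form the trimers of the major antenna of photosystem II, and the LHCB1 family held 4 of the 13 calls. LHCB1.4 (AT2G34430, chr2:14524607-14525918, plus strand, 1 exon) had 107 and 18.5 FPKM in *hda9* ES, 121 and 54.5 FPKM in *pwr* ES and 561 and 566 FPKM in WT ES. The 2 WT libraries were nearly equal and each mutant library was far below them, giving a log2 difference of -3.62 for *hda9* (SE 0.84). LHCB1.2 (AT1G29910, chr1:10472280-10473502, minus strand, 1 exon) had 534 and 243 FPKM in *hda9* ES, 1043 and 653 FPKM in *pwr* ES and 3506 and 1458 FPKM in WT ES. All *hda9* values lay below all *pwr* values and these below all WT values, and the *hda9* difference was -2.65 (SE 0.62). LHCB1.4 and LHCB1.2 passed the unadjusted threshold under every alternative that tested them, each left-out library included, and neither passed after adjustment.

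LHCB1.3, the most abundant of the 46 transcripts over the 9 libraries (AT1G29930, chr1:10477885-10479114, plus strand), had 3341 and 1269 FPKM in *hda9* ES, 3665 and 4655 FPKM in *pwr* ES and 11778 and 6318 FPKM in WT ES. Its 2 *hda9* libraries were the lowest, and the difference was -2.07 (SE 0.63). LHCB1.1 (AT1G29920, chr1:10474656-10475969, minus strand) had 413 and 196 FPKM in *hda9* ES, 533 and 243 FPKM in *pwr* ES and 1125 and 636 FPKM in WT ES, with all mutant libraries below WT and a *hda9* difference of -1.57 (SE 0.59). Without replicate 1 of WT or replicate 2 of *hda9*, neither LHCB1.3 nor LHCB1.1 passed. LHCB1.5 lay just outside the threshold at -1.47 (SE 0.60); it had 2906 and 1965 FPKM in *hda9* ES, 3889 and 2139 FPKM in *pwr* ES and 10056 and 4339.7 FPKM in WT ES, and the genotypes *hda9* and WT did not overlap.

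LHCB1.1, LHCB1.2 and LHCB1.3 stand side by side on chromosome 1, and their coding sequences are 95.6% to 96.4% identical. In 50-base windows, 20.5%, 10.6% and 17.02% of their transcripts occur in at least 1 other gene, and in 100-base windows 4.44%, 1.51% and 3.27%. Reads that lie within a shared window cannot be placed on 1 copy. The study does not state the read length, so the split between these genes is uncertain. The first 120 coding bases, from the start codon, show how close the copies are. They are shown from RefSeq (assembly TAIR10.1) with the bases that differ from LHCB1.3 in capitals, at chr1:10478071-10478190 (plus strand), chr1:10475773-10475892 (minus strand, 7 differences) and chr1:10473127-10473246 (minus strand, 6 differences).
LHCB1.3: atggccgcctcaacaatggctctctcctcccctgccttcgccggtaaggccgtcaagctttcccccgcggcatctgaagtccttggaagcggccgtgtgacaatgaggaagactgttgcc
LHCB1.1: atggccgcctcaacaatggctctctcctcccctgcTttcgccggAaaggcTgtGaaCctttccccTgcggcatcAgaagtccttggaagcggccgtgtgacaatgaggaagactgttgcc
LHCB1.2: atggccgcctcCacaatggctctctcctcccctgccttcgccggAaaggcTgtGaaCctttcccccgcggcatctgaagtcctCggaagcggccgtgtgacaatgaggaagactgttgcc

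Summing each family removes that uncertainty. The 5 LHCB1 genes together had 7302 and 3692 FPKM in *hda9* ES, 9251 and 7745 FPKM in *pwr* ES, and 27026 and 13317 FPKM in WT ES. The mutant libraries were all below WT, and the sum fell in *hda9* (log2 difference -1.87, SE 0.60). The 3 LHCB2 genes together fell as well, at 887 and 289 FPKM in *hda9* ES, 788 and 599 FPKM in *pwr* ES, and 2887 and 1267 FPKM in WT ES (-1.92 for *hda9*, SE 0.68).

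Within LHCB2, a subunit family phosphorylated during state transitions, LHCB2.2 (AT2G05070, chr2:1799234-1800472, minus strand) had 224 and 63.6 FPKM in *hda9* ES, 212 and 166 FPKM in *pwr* ES and 844 and 406 FPKM in WT ES. LHCB2.3 (AT3G27690, chr3:10255906-10257489, plus strand) had 55.4 and 5.48 FPKM in *hda9* ES, 40.1 and 30.8 FPKM in *pwr* ES and 249.99 and 123 FPKM in WT ES. Both were lower in each mutant library than in each WT library, with *hda9* differences of -2.28 (SE 0.68) and -3.21 (SE 1.01); the call on LHCB2.2 was lost without WT replicate 1 or *hda9* replicate 2, and that on LHCB2.3 without WT replicate 1. LHCB2.1 and LHCB2.2 share 96.6% of their coding bases, so their split is uncertain, while LHCB2.3 shared no 50-base window with another gene. LHCB2.1 (-1.65) and LHCB3 (-1.80) were also called, and neither call held without WT replicate 1 or *hda9* replicate 2.

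LHCB4, LHCB5 and LHCB6 are the monomeric antennae that link the trimers to the photosystem II core. LHCB4.2 (AT3G08940, chr3:2717557-2718923, plus strand) had 717 and 319 FPKM in *hda9* ES, 709 and 532 FPKM in *pwr* ES and 2812 and 1034 FPKM in WT ES. The 2 mutants overlapped each other and lay below WT, and the *hda9* difference was -1.83 (SE 0.64), a call lost without WT replicate 1 or *hda9* replicate 2. LHCB4.1 (-1.19), LHCB5 (-1.77) and LHCB6 (-1.36) did not pass. LHCB4.3, the least abundant gene of the class, overlapped fully, with 48.6 and 9.55 FPKM in *hda9* ES, 26.5 and 21.2 FPKM in *pwr* ES and 65.2 and 11.9 FPKM in WT ES and a difference of -0.35 (SE 0.99).

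LHCA1 to LHCA4 build the belt of antennae on one side of photosystem I. LHCA3 (AT1G61520, chr1:22699715-22701412, plus strand) had 1390.1 and 941 FPKM in *hda9* ES, 1984 and 1281 FPKM in *pwr* ES and 3687 and 2216 FPKM in WT ES. All mutant values were below WT, and the *hda9* difference was -1.32 (SE 0.47); it did not pass without WT replicate 1 or *hda9* replicate 2. LHCA1 was called as well, at -1.45, with the same losses. LHCA4, the most abundant of the class, had 2411 and 1377 FPKM in *hda9* ES, 2558 and 1428 FPKM in *pwr* ES and 6401 and 2589 FPKM in WT ES. Its mutant libraries lay below both WT libraries without passing for *hda9* (-1.16, SE 0.63). LHCA5 and LHCA6, minor antennae that join photosystem I to the NDH complex, overlapped between *hda9* and WT, at -0.31 and -1.48.

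**Figure D2:**
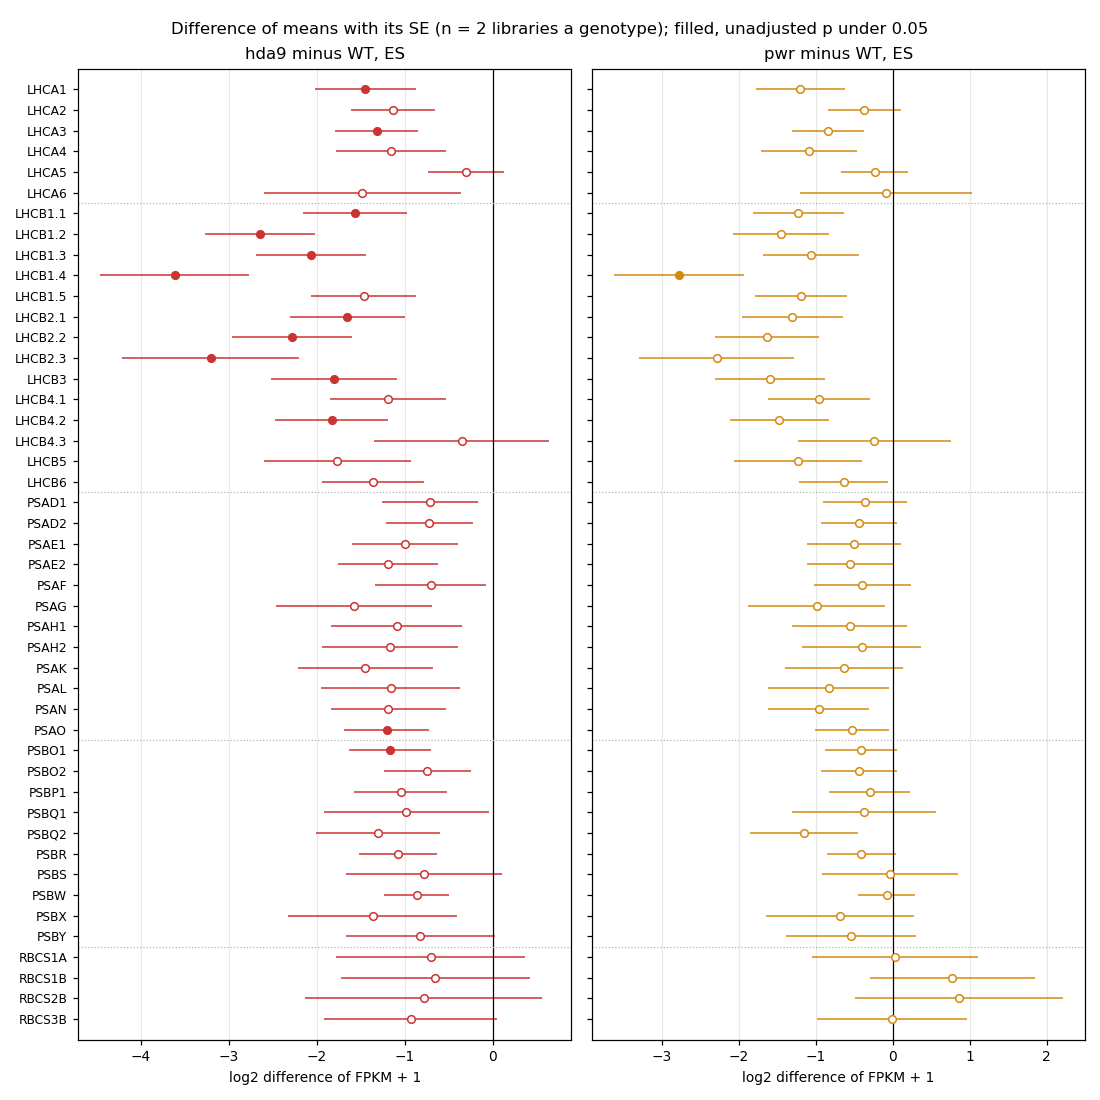
Log2 difference of FPKM + 1 in ES leaves with its SE for each of the 46 genes, *hda9* minus WT on the left and *pwr* minus WT on the right, n = 2 libraries a genotype; filled points passed an unadjusted p under 0.05. All 46 points lie below 0 for *hda9* and 43 for *pwr*, and the 2 panels share the WT libraries.

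Among photosystem I subunits only PSAO, one of the proteins at which LHCB trimers dock, was called, at 1162 and 615 FPKM in *hda9* ES, against 2474 and 1533 FPKM in WT ES (log2 difference -1.20, SE 0.48). PSAL, another docking subunit and the most abundant of the class, had 2912 and 899 FPKM in *hda9* ES, 2012 and 2040.5 FPKM in *pwr* ES and 6480.4 and 2014 FPKM in WT ES. WT replicate 2 was close to both *pwr* values and below *hda9* replicate 1, and the *hda9* difference was -1.16 (SE 0.79). The other 10 ranged between -1.57 for PSAG, which helps hold the antennae, and -0.71 for PSAF, the docking site of plastocyanin.

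Among photosystem II subunits only PSBO1, the major manganese-stabilising protein of the water-splitting complex, was called, at 1903 and 1025 FPKM in *hda9* ES, against 3854 and 2561 FPKM in WT ES (-1.17, SE 0.47). PSBR, a small subunit needed for assembly of that complex and the most abundant PSB transcript, had 3448 and 2233 FPKM in *hda9* ES, 4633 and 4218 FPKM in *pwr* ES and 6849 and 5017 FPKM in WT ES. The genotypes separated in order of *hda9*, *pwr* and WT, but the *hda9* difference did not pass (-1.08, SE 0.44). The other 8 genes ranged between -1.36 for PSBX and -0.74 for PSBO2. PSBS, the sensor of energy-dependent quenching, was at -0.78 with overlapping groups. The calls on PSAO and PSBO1 were each lost without WT replicate 1, WT replicate 2 or *hda9* replicate 2.

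For RBCS the spread between replicates exceeded the difference between genotypes. RBCS1A (AT1G67090, chr1:25048158-25049667, minus strand) had 7163 and 1023 FPKM in *hda9* ES, 3481 and 5833 FPKM in *pwr* ES and 8136 and 2395 FPKM in WT ES. RBCS1B (AT5G38430) had 699.6 and 77.6 FPKM in *hda9* ES, 424 and 935 FPKM in *pwr* ES and 526 and 257 FPKM in WT ES. RBCS2B (AT5G38420) had 1167 and 84.3 FPKM in *hda9* ES, 499 and 1949.7 FPKM in *pwr* ES and 848 and 348 FPKM in WT ES. For each of these, replicate 1 of *hda9* exceeded replicate 2 of WT and replicate 2 of *hda9* was the lowest library. RBCS3B (AT5G38410) had 1452 and 203 FPKM in *hda9* ES, 836 and 1280.3 FPKM in *pwr* ES and 1586 and 683 FPKM in WT ES, in the same pattern. The *hda9* differences ran between -0.93 and -0.65, with standard errors of 0.98 to 1.35, and none passed. The 3 B genes lie within one stretch of chromosome 5, share 96.7% to 97.3% of their coding bases and have 13.98% to 21.4% of 50-base windows in common with another gene, so their split is uncertain. In 100-base windows the shares were 7.47% for RBCS1B, 0% for RBCS2B and 12.1% for RBCS3B. The family sum gave -0.74 for *hda9* (SE 1.09).

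Compared within a library set, the *hda9* difference kept its direction in the antenna and photosystem classes but not in RBCS. Between the libraries without steps, *hda9* replicate 1 lay below WT replicate 1 for 44 of 46 genes, with a median of -0.999, against 0.04 over all genes tested. Between libraries with steps, *hda9* replicate 2 lay below WT replicate 2 for all 46 (median -1.36), against a median of 0 over all genes. The LHCB median was -1.77 in one pair and -1.80 in the other, and the LHCA median was -1.17 and -1.29. PSA gave -0.91 and -1.34, and PSB -0.78 and -1.16. RBCS differed between the pairs, with a median of 0.14 in libraries without steps and of -1.73 in libraries with steps. These pairs hold 1 library a genotype, so no test was made within a pair. A fit over all 6 libraries with the library set as a term called 38 of the 46 lower in *hda9*, where it called 7.39% of all genes lower and 9.56% higher.

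**Figure D3:**
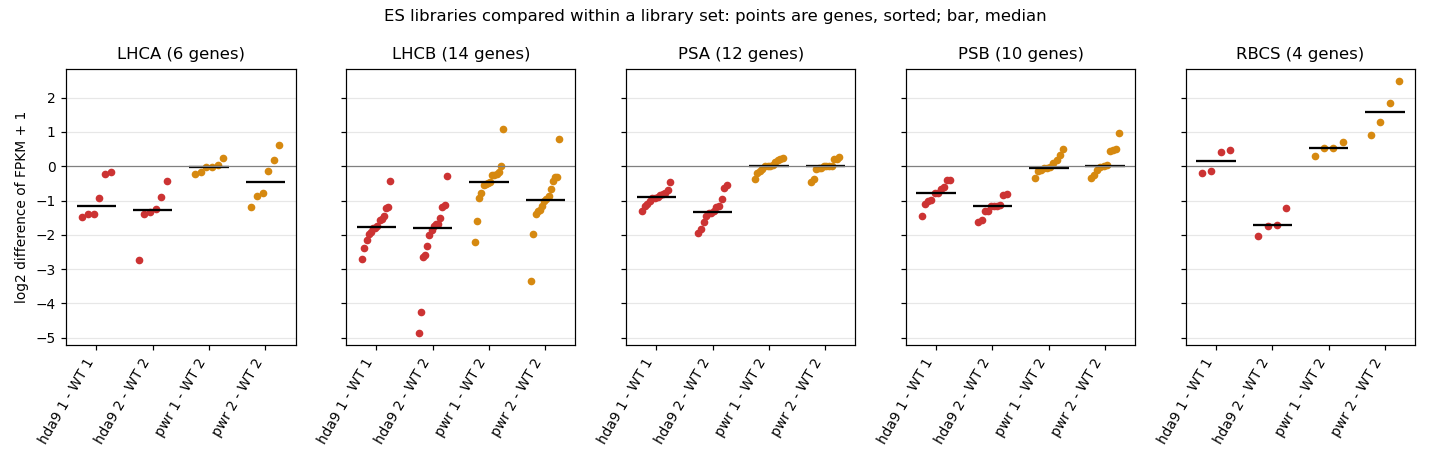
Log2 difference of FPKM + 1 between pairs of ES libraries of the same set, by class; points are genes, bars are medians, and the pairs are *hda9* 1 minus WT 1, *hda9* 2 minus WT 2, *pwr* 1 minus WT 2 and *pwr* 2 minus WT 2. LHCB medians are near -1.77 and -1.80 for *hda9*, and -0.47 and -0.99 for *pwr*.

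In *pwr*, 1 of the 46 genes fell relative to WT and none rose in ES leaves, where 2.82% of all genes were called lower and 3.65% higher. The comparison uses the same WT libraries as that of *hda9*. The gene was LHCB1.4, at the values given above (log2 difference -2.78, SE 0.84), and the call was lost when either WT library or *pwr* replicate 2 was left out. Next in order of p, and not past the test, came LHCB2.2 (-1.64), LHCB1.2 (-1.45), LHCB4.2 (-1.47) and LHCB2.3 (-2.29). Of the 46, 43 had a lower mean in *pwr*, with a median of -0.55 against 0.08 over all genes, and RBCS1A, RBCS1B and RBCS2B a higher one. In 24 genes both *pwr* libraries lay below both WT libraries, against 16.7% of all genes, and 12 of these were LHCB genes. The opposite order, both *pwr* libraries above both WT libraries, was found for none of the 46 and for 25.7% of all genes. None passed after adjustment, where 0.0165% of all genes were higher and 0.0165% lower, and LHCB1.4 had an adjusted p = 0.729.

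Both *pwr* libraries belong to the set with steps, and there the median difference to WT replicate 2 was near 0. It was -0.04 for *pwr* replicate 1, with 27 of 46 genes below, and -0.07 for *pwr* replicate 2, with 29 below. PSA medians were 0.01 and -0.01, and PSB medians -0.04 and 0.02. LHCB medians were -0.47 and -0.99, with 12 and 13 of 14 genes below WT. RBCS medians were 0.53 and 1.57, with all 4 genes above WT in both. WT replicate 1, the higher WT library, is in the other set, and with the library set as a term in the fit 3 of the 46 were called lower and 2 higher in *pwr*, against 6.63% of all genes lower and 5.69% higher.

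Set against each other, the mutants gave no call among the 46 genes in either direction (limma), where 2.76% of all genes were lower and 2.01% higher in *hda9*. The smallest p belonged to PSBW, a small subunit that stabilises photosystem II supercomplexes. It had 1148 and 766 FPKM in *hda9* ES, 1601 and 1632 FPKM in *pwr* ES and 1748 and 1673 FPKM in WT ES, and both *hda9* values were below both *pwr* values (log2 difference -0.79, SE 0.37). All 46 means were lower in *hda9* than in *pwr*, with a median of -0.59, against -0.07 over all genes. The groups did not overlap in 8 genes, all lower in *hda9*, against 19.9% of all genes lower and 14.4% higher. After adjustment 0% of all genes were called in either direction. The lower level in *hda9* rested on *hda9* replicate 2. Without it the median turned to 0.27, and without *hda9* replicate 1 it was -1.23 with 10 of the 46 called lower, against 3.93% of all genes. Within the set with steps, *hda9* replicate 2 was below each *pwr* library for all 46 genes, with medians of -1.34 and -1.21.

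In young leaves, none of the 46 genes rose and 1 fell in *hda9* relative to WT (limma, unadjusted p under 0.05), where 4.94% of all 17780 genes were called lower and 3.78% higher. The single *hda9* library leaves 1 residual degree of freedom, and its variance is assumed to match that of WT. The gene was LHCB4.3 (AT2G40100, chr2:16745628-16747424, plus strand), a weakly expressed form of the monomeric antenna LHCB4, at 5.26 FPKM in *hda9* YL and 22.0 and 15.0 FPKM in WT YL (log2 difference -1.62, SE 0.43, adjusted p = 0.470). At an adjusted p under 0.05, 0.0675% of all genes were higher and 0.0394% lower. LHCB4.3 was below both WT libraries, and it was not called after rescaling to the summed FPKM of other genes.

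Of the other genes, most were higher in the *hda9* YL library than the WT mean. Of the 46, 36 were above and 10 below, with a median of 0.62 against -0.06 over all genes. The library lay above both WT libraries for 28 and below both for 5, against 34.2% and 39.8% of all genes. LHCB genes had the highest class median, 1.08, with 13 of 14 above WT. LHCB1.4 had 11663 FPKM in *hda9* YL and 5035 and 1665 FPKM in WT YL, and LHCB1.5 had 26965 FPKM in *hda9* YL and 14008 and 3394 FPKM in WT YL. Both were highest in *hda9*, but neither difference passed (2.01, SE 1.39, and 1.97, SE 1.99). All 4 RBCS genes were below the WT mean (median -0.26). Against WT replicate 1, which shares the set without steps with *hda9*, the median was 0.20 with 29 genes above, and against WT replicate 2, of the other set, it was 0.98. After rescaling to the summed FPKM of other genes the median was 0.05, with 24 genes above and 22 below. One gene, AT2G01021, held 1.69966e+06 FPKM in *hda9* YL and 2.10431e+06 and 432947 FPKM in WT YL, and that rescaling moved the median of all genes to -0.57. Guard cell markers summed to 28.5 FPKM in *hda9* YL, against 151 to 153 FPKM in WT YL, with FAMA and GC1 called lower; their part in the result was not tested.

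The antenna and photosystem genes in the next sentences had the *hda9* library above both WT libraries in YL leaves. LHCB1.3 had 32643 FPKM in *hda9* YL and 28908 and 12687 FPKM in WT YL. LHCB1.2 had 7381 FPKM in *hda9* YL and 4152 and 1681 FPKM in WT YL, and LHCB1.1 had 3391 FPKM in *hda9* YL and 2563 and 713 FPKM in WT YL. These 3 neighbours on chromosome 1 were thus all highest in *hda9*. LHCB2.2 had 988 FPKM in *hda9* YL and 789.6 and 247 FPKM in WT YL. LHCB2.3 had 916 FPKM in *hda9* YL and 802 and 233 FPKM in WT YL. The 2 LHCB2 genes stood at nearly equal levels in each YL library. LHCB4.2 had 3438 FPKM in *hda9* YL and 2472 and 1173 FPKM in WT YL, and LHCA3 had 4255 FPKM in *hda9* YL and 2991 and 1624 FPKM in WT YL. PSAL had 5705 FPKM in *hda9* YL and 4304 and 2581 FPKM in WT YL. PSBR had 9693 FPKM in *hda9* YL and 9589.6 and 6233 FPKM in WT YL, so that *hda9* and the higher WT library were close. The RBCS genes did not share this order. RBCS1A had 19104 FPKM in *hda9* YL and 25731 and 18769 FPKM in WT YL, with *hda9* between the WT libraries, and RBCS3B had 5091 FPKM in *hda9* YL and 6859.8 and 5853 FPKM in WT YL, with *hda9* below both.

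The stages were compared as values with no test, since the ES and YL libraries stand in separate tables. In *hda9*, 45 of the 46 genes were lower in ES than in YL leaves, with a median log2 difference of -2.73, against 0.66 over the 16229 genes that passed the filter in both tables. In WT, 35 were lower and 11 higher, with a median of -0.63 against 0.53 over all genes. Both ES libraries lay below the YL library for 42 genes in *hda9*, against 27.4% of all genes, and below both YL libraries for 16 genes in WT, against 17.5%. The WT median turned to 0.23 after rescaling to the summed FPKM of other genes, against 1.23 over all genes. The same rescaling gave -1.16 in *hda9*, against 1.95 over all genes. Joint rescaling of both tables by median ratios gave -3.49 in *hda9* and -1.22 in WT, against 0 and 0.01 over all genes. The *hda9* median was -1.56 without ES replicate 2 and -3.43 without ES replicate 1. Epidermis markers did not share a direction between stages. PDF1 was listed at 0 in the 6 ES libraries and had 791 FPKM in *hda9* YL and 466 and 251 FPKM in WT YL. ATML1 and FDH were also lower in ES than in YL leaves within *hda9* and within WT, without overlap. CUT1 was higher in ES, at 248 and 149 FPKM in *hda9* ES, against 135 FPKM in *hda9* YL. In WT, CUT1 had 360 and 323 FPKM in ES, against 212 and 151 FPKM in YL. CER1 was higher in *hda9* ES than in *hda9* YL and overlapped in WT. Phloem companion cell markers (5 genes, each higher in ES) summed to 1061 to 2025 FPKM in *hda9* ES, against 144 FPKM in *hda9* YL. In WT they summed to 1209 to 1601 FPKM in ES, against 165 to 230 FPKM in YL. Shoot meristem markers (4 genes) summed to 0.561 to 0.986 FPKM in *hda9* ES, against 12.1 FPKM in *hda9* YL. In WT these had 0.144 to 0.239 FPKM in ES, against 10.4 to 11.9 FPKM in YL. Guard cell sums were higher in ES in *hda9* and lower in WT. The part of these markers in the stage differences was not tested.

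The classes differed in how they stood between stages. RBCS was lower in ES leaves by a median of -3.02 in *hda9* and -2.69 in WT, and all 4 genes were without overlap in both genotypes. LHCB was lower by -3.27 in *hda9* but by only -0.17 in WT, where 5 of 14 genes had the higher mean in ES leaves. LHCA gave -2.16 in *hda9* and -0.12 in WT. PSA gave -2.43 in *hda9* and -0.82 in WT, and PSB gave -1.72 in *hda9* and -0.54 in WT. The single *hda9* YL library is without steps, while *hda9* ES replicate 2 is with steps. Replicate 1 libraries, all without steps, gave ES minus YL medians over the 46 genes of -1.56 in *hda9* and -0.53 in WT. By class, in *hda9* and WT in turn, these were -2.64 and -0.12 for LHCB and -1.42 and 0.02 for LHCA. PSA gave -1.70 and -0.64, and PSB -1.28 and -0.53. RBCS gave -1.46 and -2.22, so its order between the genotypes turned.

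**Figure D4:**
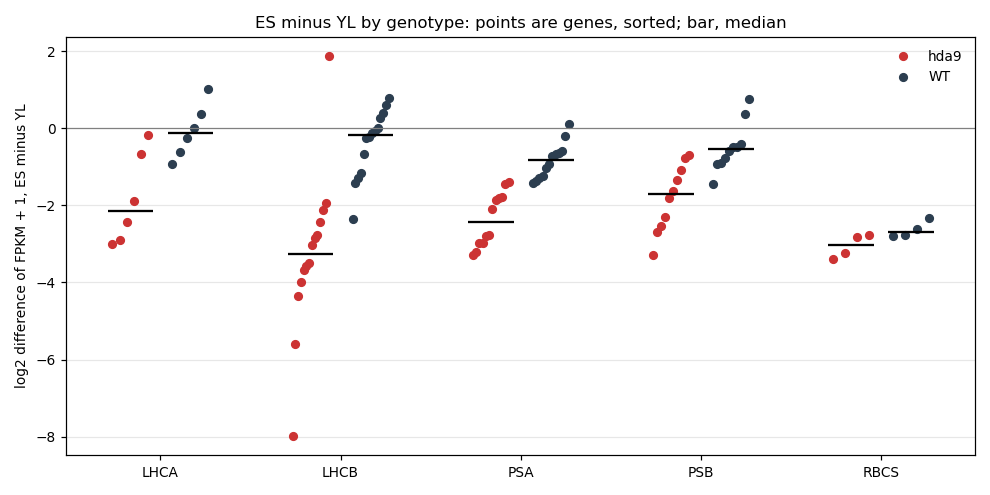
Log2 difference of FPKM + 1, ES minus YL, for each gene by class, *hda9* left of WT; points are genes and bars are medians. The LHCB medians are -3.27 in *hda9* and -0.17 in WT, while the RBCS medians are -3.02 and -2.69. The *hda9* YL values come from 1 library without steps, and those of the other groups from both library sets.

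The extremes in WT were antenna and Rubisco genes. LHCA4 had 6401 and 2589 FPKM in WT ES, against 2428 and 1660.4 FPKM in WT YL (log2 difference 1.02). It had 2411 and 1377 FPKM in *hda9* ES, against 2915 FPKM in *hda9* YL, so that it was higher in ES than in YL leaves in WT and lower in *hda9*. LHCB2.1 had 1793 and 739 FPKM in WT ES, against 1144 and 395 FPKM in WT YL (0.77), with overlap. It had 536 and 402 FPKM in *pwr* ES. In *hda9* it had 608 and 219.6 FPKM in ES, against 1415 FPKM in YL. RBCS1B (-2.78 in WT) and RBCS2B (-2.77) were at the other end. RBCS1B had 526 and 257 FPKM in WT ES, against 2786 and 2313 FPKM in WT YL, and 699.6 and 77.6 FPKM in *hda9* ES, against 1594 FPKM in *hda9* YL. RBCS2B had 848 and 348 FPKM in WT ES, against 4269.6 and 3211 FPKM in WT YL, and 1167 and 84.3 FPKM in *hda9* ES, against 3332 FPKM in *hda9* YL. LHCB4.3 was the single gene with a higher mean in ES than in YL leaves in *hda9* (1.87).

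Shares within a library do not depend on how the library was scaled. LHCB genes made up 23.8% and 27.1% of the summed FPKM of the 46 genes in *hda9* ES and 28.4% and 23.1% in *pwr* ES, against 36.2% and 35.5% in WT ES. The mutants overlapped each other, and each mutant library was below both WT libraries, which differed from one another by less than any mutant library differed from them. In YL leaves the share was 44.2% in *hda9*, against 36.1% and 26.4% in WT. RBCS took 16.8% and 6.03% in *hda9* ES, 9.37% and 18.0% in *pwr* ES, and 8.25% and 6.01% in WT ES, with *hda9* and WT overlapping, and 11.7% in *hda9* YL, against 18.3% and 25.8% in WT YL.

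**Figure D5:**
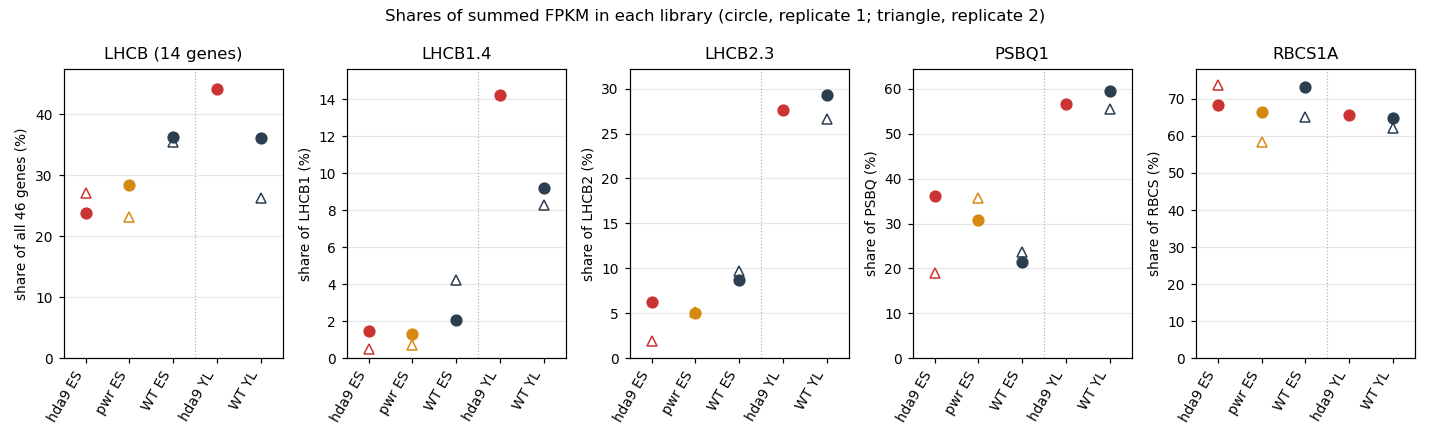
Shares of summed FPKM (%) in each library: LHCB genes among all 46 genes, and LHCB1.4, LHCB2.3, PSBQ1 and RBCS1A within their own families; columns are *hda9* ES, *pwr* ES, WT ES, *hda9* YL and WT YL, circles are replicate 1 and triangles replicate 2. LHCB2.3 holds 1.90% to 6.24% in *hda9* ES, against 8.66% to 9.72% in WT ES, and 26.6% to 29.3% in the YL libraries.

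Members of a family were used unequally, and the use shifted with stage and genotype. With 2 libraries against 2, an exact two-sided permutation test of a share cannot go below p = 0.333, and none of the 75 differences between ES genotypes did, so these are descriptions. LHCB2.3 gave 6.24% and 1.90% of LHCB2 in *hda9* ES, 5.09% and 5.13% in *pwr* ES, and 8.66% and 9.72% in WT ES. It gave 27.6% in *hda9* YL and 29.3% and 26.6% in WT YL. The share was thus lower in every ES than in every YL library, and among ES libraries lowest in the mutants. LHCB2.1 took up the difference, with 68.5% and 76.1% in *hda9* ES, 68.0% and 67.1% in *pwr* ES and 62.1% and 58.3% in WT ES, and 42.6% in *hda9* YL, against 41.8% and 45.1% in WT YL. LHCB1.4 gave 1.47% and 0.502% of LHCB1 in *hda9* ES, 1.31% and 0.704% in *pwr* ES and 2.08% and 4.25% in WT ES, and 14.2% in *hda9* YL, against 9.21% and 8.27% in WT YL. For both LHCB1.4 and LHCB2.3 the mutant ES libraries were the farthest from the YL libraries.

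The larger genes of LHCB1 shifted less regularly. LHCB1.5 gave 39.8% and 53.2% of the family in *hda9* ES, 42.0% and 27.6% in *pwr* ES, and 37.2% and 32.6% in WT ES, and 32.9% in *hda9* YL, against 25.6% and 16.9% in WT YL. It was above WT in both *hda9* ES libraries. LHCB1.3 gave 45.8% and 34.4% in *hda9* ES, 39.6% and 60.1% in *pwr* ES, and 43.6% and 47.4% in WT ES, and 39.8% in *hda9* YL, against 52.9% and 63.0% in WT YL. The ES genotypes overlapped for LHCB1.3. LHCB4.2 gave 29.0% and 32.1% of LHCB4 in *hda9* ES, 35.01% and 30.1% in *pwr* ES and 41.5% and 40.4% in WT ES, so that it was lower in each mutant library than in WT. In YL leaves it gave 42.3% in *hda9* and 40.6% and 37.7% in WT.

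PSBQ, an extrinsic protein of the water-splitting complex, changed its leading gene between stages. PSBQ1 gave 36.2% and 18.9% of the pair in *hda9* ES, 30.9% and 35.6% in *pwr* ES and 21.5% and 23.6% in WT ES, and 56.6% in *hda9* YL, against 59.4% and 55.5% in WT YL. PSBQ2 thus had the larger share in every ES library and PSBQ1 in every YL library. PSBQ1 had 950.5 and 155 FPKM in *hda9* ES, 525 and 650.2 FPKM in *pwr* ES and 1250.0 and 460 FPKM in WT ES, and 2219 FPKM in *hda9* YL, against 2618 and 1643 FPKM in WT YL. PSBQ2 had 1678 and 665 FPKM in *hda9* ES, 1175 and 1174 FPKM in *pwr* ES and 4571 and 1488 FPKM in WT ES, and 1704 FPKM in *hda9* YL, against 1789 and 1319 FPKM in WT YL. RBCS1A kept the largest RBCS share in all 9 libraries, at 68.3% and 73.7% in *hda9* ES, 66.4% and 58.3% in *pwr* ES and 73.3% and 65.0% in WT ES, and 65.6% in *hda9* YL, against 64.9% and 62.3% in WT YL. The shares of the PSAD, PSAE, PSAH and PSBO pairs moved by under 10 percentage points between genotypes in ES leaves and between stages in WT.

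The 250 bases upstream of each gene start in RefSeq were read for 5 short motifs on both strands. CCAAT, the letters of the box bound by NF-Y factors, was found upstream of 29 of the 46 genes and in 46.04% of the 27443 upstream windows of that length. It was found for 13 of 14 LHCB genes, LHCB6 being the exception, 5 of 6 LHCA genes, 7 of 12 PSA genes, 2 of 10 PSB genes and 2 of 4 RBCS genes. The letters of the G-box, CACGTG, were found for 9 of the 46 and in 6.49% of all windows, and those of the I-box core, GATAAG, for 10 and in 12.3%. The W-box core TTGAC was found for 14 and in 44.9%, and the GT-1 type letters GGTTAA for 8 and in 14.6%. A match is a description of letters and not a site, and RefSeq gene starts can lie upstream of the start used in leaves. The windows of the 3 genes with the most negative *hda9* differences in ES leaves and of LHCB4.3, the gene called in YL leaves, are shown 5′ to 3′ on the gene's strand (RefSeq, TAIR10.1), with CCAAT or its reverse complement ATTGG in capitals: LHCB1.4 at chr2:14524357-14524606 (plus), LHCB1.2 at chr1:10473503-10473752 (minus), LHCB2.3 at chr3:10255656-10255905 (plus) and LHCB4.3 at chr2:16745378-16745627 (plus).
LHCB1.4: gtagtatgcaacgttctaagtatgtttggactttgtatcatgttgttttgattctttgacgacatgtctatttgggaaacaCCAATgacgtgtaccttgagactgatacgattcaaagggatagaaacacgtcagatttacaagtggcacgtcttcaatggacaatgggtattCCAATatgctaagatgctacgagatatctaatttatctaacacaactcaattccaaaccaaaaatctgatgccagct
LHCB1.2: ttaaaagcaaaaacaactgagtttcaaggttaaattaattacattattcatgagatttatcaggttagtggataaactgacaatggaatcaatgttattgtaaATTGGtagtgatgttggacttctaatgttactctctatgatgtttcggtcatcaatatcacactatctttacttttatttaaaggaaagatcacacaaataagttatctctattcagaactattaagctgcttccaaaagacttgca
LHCB2.3: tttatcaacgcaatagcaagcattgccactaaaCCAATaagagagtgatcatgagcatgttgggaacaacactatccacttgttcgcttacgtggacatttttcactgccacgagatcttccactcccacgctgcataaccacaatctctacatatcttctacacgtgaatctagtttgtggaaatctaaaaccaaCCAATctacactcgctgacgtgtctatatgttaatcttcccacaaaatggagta
LHCB4.3: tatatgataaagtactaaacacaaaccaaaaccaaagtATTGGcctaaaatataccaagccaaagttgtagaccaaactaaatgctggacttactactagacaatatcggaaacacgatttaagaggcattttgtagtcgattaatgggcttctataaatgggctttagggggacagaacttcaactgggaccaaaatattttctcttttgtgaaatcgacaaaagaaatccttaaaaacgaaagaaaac

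LHCB1.4 and LHCB2.3 each carry the letters 2 times, and LHCB1.2 and LHCB4.3 carry them 1 time, on the other strand. LHCB4.3, whose ES difference was -0.35, thus also holds them. The window of LHCB2.3 also holds a G-box, CACGTG.

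Other nuclear genes of photosynthesis gave few calls in ES leaves. Of 13 genes of electron transport and ATP synthase, none was called in *hda9* against WT (limma), although all 13 had a lower mean (median -0.54), and of 16 Calvin cycle genes none was called, with all 16 lower in mean (median -0.60). Of 9 Rubisco assembly genes none was called in *hda9*. In *pwr* the Calvin cycle median was 0.18, with 12 genes above WT and none called. CPN20, a co-chaperonin of the Rubisco-folding chaperonin, rose in *pwr*, with 276 and 256 FPKM in *hda9* ES, 319.8 and 585 FPKM in *pwr* ES and 214 and 234 FPKM in WT ES (0.95, SE 0.38). Both *pwr* libraries were above the other 4 ES libraries. The chloroplast genes of the core subunits and of the large subunit of Rubisco were not analysed here.

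Of 11 genes for the insertion, phosphorylation and regulation of antennae, CPSRP43, the chloroplast signal recognition particle subunit that escorts LHC proteins, fell in *hda9*. It had 50.1 and 63.7 FPKM in *hda9* ES, 112 and 109 FPKM in *pwr* ES and 87.2 and 106 FPKM in WT ES (-0.75, SE 0.27), and was lower in both *hda9* libraries than in the other 4. Between the mutants it was lower in *hda9* as well (-0.95, SE 0.27), as were CPSRP54 (-0.86), BSD2, a chaperone of Rubisco assembly (-1.004), and HCEF1, the fructose bisphosphatase of the Calvin cycle (-1.11). RBCX2, another Rubisco chaperone, was higher in *hda9* than in *pwr* (0.78). In YL leaves, STN7, the kinase that phosphorylates LHCB proteins, was lower in *hda9*, at 10.9 FPKM in *hda9* YL and 24.5 and 26.1 FPKM in WT YL (-1.14, SE 0.38). None of these calls held at an adjusted p under 0.05.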

How the data were processed

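The authors deposited FPKM tables of ES and YL leaves. RNA-seq reads were aligned with TopHat and Bowtie2 to TAIR10, and FPKM came from Cufflinks, per the study's methods and the submitters' processing notes. The methods, which cover RNA-seq and chromatin immunoprecipitation together, also collapsed reads that shared a mapped position; this step can lower the FPKM of abundant genes most, and whether the deposited values include it was not tested. The libraries were described as biological replicates, and the p-values measure the spread between these libraries. Chromatin immunoprecipitation samples were not analysed here.

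On the log2(FPKM + 1) scale, each table was fitted over its genes averaging 1 FPKM or more with limma 3.58.1 (R 4.3.3), empirical Bayes with trend, two-sided. The ES fit held 6 libraries with 3 residual degrees of freedom, and the YL fit 3 libraries with 1. Fold changes are on the log2(FPKM + 1) scale, which understates those of low genes. The study's threshold was kept, a p under 0.05 before adjustment, with Benjamini-Hochberg adjustment over all genes tested given beside it. The fit was checked on simulated data with independent errors. That check held no library sets or shared replicate deviations, so it cannot show how these affect the p-values. FPKM depend on how reads were shared between near-identical genes, so families were also summed. Sequences, positions and motifs came from RefSeq TAIR10.1 and were matched by gene identifier for all 46 genes. Class sums and shares were taken within a library.

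Values in every library are printed for the most abundant member of each class, up to 8 members called in each comparison by smallest p, the 2 largest and 2 smallest ES minus YL differences in WT, paralogs whose share moved by over 10 percentage points, and all RBCS genes; other values were chosen after they were seen. The members and lists were chosen with earlier results of these data known. Alternatives were another pseudocount (0.1), other filters (none, a mean of 5 FPKM), 3 rescalings, no trend, a replicate block, a library set block, fits of the compared groups alone, summed families and each library left out.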

Additional observations from a re-analysis of the deposited data

Results flagged for a closer look

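The difference between *hda9* and WT had opposite signs in the 2 stages for the antenna classes. The summed LHCB FPKM differed by a mean log2 of -1.76 in ES leaves, where both *hda9* libraries were below both WT libraries, and by 1.17 in YL leaves, where the *hda9* library was above both. For LHCA the values were -1.23 in ES leaves and 0.83 in YL leaves. The same opposite order held for 19 of the 46 genes (41.3%), 15 of them LHCA or LHCB genes, against 908 of 16229 genes passing the filter in both tables (5.59%). The YL order depended on scaling: after rescaling to the summed FPKM of other genes, LHCA had 13518 in *hda9* YL, against 9116 and 14068 in WT YL (0.26), LHCB stayed above both WT libraries (0.59), and the opposite order held for 14 of the 46 genes (30.4%), against 0.8996% of all genes. With the other 2 rescalings both classes kept it. The difference between stages was not tested, because the stages stand in separate tables and *hda9* YL has 1 library.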

How the results depend on the processing

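In ES leaves the count lower in *hda9* than WT, 13 as reported, was 3 with no filter, 7 under each of the 3 rescalings, 0 at an adjusted p, 5 in a fit of these groups alone and 8 with LHCB1, LHCB2 and RBCS summed; with single libraries left out it was 2 to 31 and the median -1.998 to -0.49. The count lower in *pwr*, 1 as reported, was 0 with no filter, at an adjusted p and with families summed, 3 in a fit of these groups alone, and 0 to 6 with libraries left out. For *hda9* against *pwr*, 1 gene was called lower without the trend and 0 to 10 with libraries left out, where the median ran from -1.23 to 0.27. In YL leaves 1 gene was called higher without the trend, and 0 lower after rescaling to summed FPKM and at an adjusted p. The ES minus YL median after that rescaling was 0.23 in WT and -1.16 in *hda9*, against 1.23 and 1.95 over all genes. Leaving out a replicate gave -3.43 and -1.56 in *hda9*. With a library set block, 38 genes were lower in *hda9* than WT (7.39% of all genes), 38 lower in *hda9* than *pwr* (9.06%), and 3 lower (6.63%) and 2 higher (5.69%) in *pwr* than WT, with a *pwr* median of 0.018. The cause was not tested for any of these. Rescaling to summed FPKM moved the median of all genes to 0.14 for *hda9* and 0.28 for *pwr* in ES leaves and to -0.57 in YL leaves. Over all genes tested it gave 747 higher and 296 lower in *hda9* than WT ES (404 and 491 as reported), 1634 and 292 in *pwr* than WT (662 and 511), 296 and 715 in *hda9* than *pwr* (365 and 500; 519 and 414 with median ratios), and 32 and 21 in *hda9* than WT YL (672 and 878).

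The replicate numbers are not stated to mark a shared batch. With a replicate block, 25 genes were lower in *hda9* than WT (4.12% of all genes), 12 lower in *pwr* than WT (4.57%) and 1 lower in *hda9* than *pwr* (4.80%). Deviations of same-numbered libraries correlated over all genes tested at 0.55 for *hda9* and WT, 0.10 for *pwr* and WT and -0.01 for *hda9* and *pwr*.

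Of the named calls on single genes, 147 repeats under an alternative were counted as kept and 79 as lost, and none changed sign. The 147 include the repeats of LHCB4.3 in YL leaves with a WT library left out. These had no test and were counted because the difference lay within the SE of the main fit. The study lists total reads of each sample, which were not used here, so the limit that depth sets on these values is not given.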
